A study of Homo sapiens with 2 samples.

Results

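Far intergenic control peaks are ATAC-seq peaks of untreated 293T cells outside protein-coding and lncRNA genes and at a distance from their starts. They were all control ATAC-seq peaks on chromosomes 1 to 22, X and Y whose midpoint lay in no protein-coding or lncRNA gene of the GENCODE 44 annotation and whose nearest edge was more than 50 kb from every transcript start of such genes. The rule found 3984 peaks among the 36142 of the control list, or among the 35515 on these chromosomes. A peak was called retained when at least 1 bp of it overlapped any peak of the list from cells treated with methylglyoxal (MGO), and 1146 of the 3984 were retained, 28.8% with a 95% Wilson interval of 27.4 to 30.2. Of all 35515 control peaks 49.7% had an MGO peak over them, and of the 22379 peaks of the MGO list on the same chromosomes 78.9% had a control peak.

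ATAC-seq uses the Tn5 transposase, which inserts sequencing adapters into DNA not wrapped in nucleosomes or held by other proteins, so that reads accumulate over accessible sites. The 293T line was derived from human embryonic kidney and makes the large T antigen of SV40. One culture was given fresh medium without a supplement (its label names PBS as the treatment) and the other fresh medium with 0.5 mM MGO, a reactive by-product of glycolysis that glycates histones, for 12 h. A library was made from 50000 cells of each. The study's methods name a step that compares replicates, so more libraries may have been made, but 1 per condition was analysed here and there is no replicate check, so every interval below covers counting error over peaks only and no test between the conditions was made. The peak lists hold no read counts, so the depth behind a peak is unknown. The MGO list was the shorter, with 22884 peaks deposited in all, and a control peak without an MGO partner may still have had reads there below the threshold of the call. The labelled cell type was looked up at transcript starts, where 5 of 6 genes listed as markers of 293T had a control peak within 1 kb (VIM, LIN28B, PAX2, EYA1 and NEFM, but not LHX1). Of the marker genes of other cell types, PTPRC, HBB, ALB, INS and MYH6 had none.

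DNA far from genes is of several kinds. Distal elements such as enhancers and insulators are mostly single-copy sequence and are bound by transcription factors, among them CTCF, which holds chromatin loops, and AP-1, the FOS and JUN dimers that respond to growth signals and stress. Centromeres and their flanks are built of satellites, short units repeated head to tail, which are usually packed in heterochromatin. Alpha satellite has a unit somewhat longer than the DNA around a nucleosome and the satellites of other centromere flanks are built of the pentamer GGAAT. The nuclear genome also holds copies of mitochondrial DNA, inserted during evolution and no longer expressed.

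Sequences under far intergenic peaks show these kinds of DNA side by side. All are from the forward strand of the GRCh38 reference, 5′ to 3′, taken from the middle of the peak or around a motif match. The first is from the strongest far intergenic peak, a copy of the mitochondrial MT-RNR2 gene, and has nothing in capitals. In the next, capitals mark ATTCC, the other strand of the pentamer GGAAT. In the last pair, neighbouring alpha satellite units from 1 peak, capitals mark the bases that are the same in both.
chr3:96617631-96617790, mitochondrial copy: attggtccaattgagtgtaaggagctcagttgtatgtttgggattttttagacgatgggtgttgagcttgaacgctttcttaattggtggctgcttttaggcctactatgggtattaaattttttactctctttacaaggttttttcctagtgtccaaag
chr5:49666691-49666810, pentamer satellite: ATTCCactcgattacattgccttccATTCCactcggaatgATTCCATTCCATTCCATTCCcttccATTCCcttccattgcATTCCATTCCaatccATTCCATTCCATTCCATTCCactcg
chr17:26619629-26619799, alpha unit: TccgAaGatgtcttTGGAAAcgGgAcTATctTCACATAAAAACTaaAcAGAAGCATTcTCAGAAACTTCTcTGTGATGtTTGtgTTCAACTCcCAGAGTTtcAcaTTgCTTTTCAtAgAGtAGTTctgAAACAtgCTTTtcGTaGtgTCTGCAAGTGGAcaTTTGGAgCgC
chr17:26619800-26619970, next alpha unit: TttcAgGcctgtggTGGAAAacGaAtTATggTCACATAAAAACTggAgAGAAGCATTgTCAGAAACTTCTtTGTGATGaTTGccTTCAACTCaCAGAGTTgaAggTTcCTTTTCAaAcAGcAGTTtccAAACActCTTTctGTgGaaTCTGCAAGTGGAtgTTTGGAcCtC
The alpha units were the same at 123 positions, 71.9% of their length. All of these peaks were retained.

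Further sequences are from single-copy peaks with a motif match and from the strongest peaks that were not retained. Capitals mark the match, to CTCF in the first and to AP-1 in the second, and the last pair held neither motif.
chr13:61880920-61881079, retained, CTCF match: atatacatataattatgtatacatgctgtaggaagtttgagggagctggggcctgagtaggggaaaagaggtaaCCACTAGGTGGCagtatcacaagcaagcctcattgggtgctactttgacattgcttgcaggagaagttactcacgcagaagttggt
chr13:87124072-87124231, retained, AP-1 match: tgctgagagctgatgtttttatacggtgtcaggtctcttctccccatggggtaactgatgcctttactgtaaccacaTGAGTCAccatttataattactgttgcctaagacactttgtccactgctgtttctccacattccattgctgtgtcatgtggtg
chr4:162421844-162422003, not retained: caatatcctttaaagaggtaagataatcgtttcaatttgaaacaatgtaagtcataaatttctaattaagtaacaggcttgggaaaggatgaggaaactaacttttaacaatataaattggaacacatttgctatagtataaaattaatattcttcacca
chr17:71033115-71033274, not retained: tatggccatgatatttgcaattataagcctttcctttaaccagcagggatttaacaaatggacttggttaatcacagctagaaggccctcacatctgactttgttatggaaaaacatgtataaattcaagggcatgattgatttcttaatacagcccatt
These peaks lay far from any gene start, the nearest being those of LINC00358, LINC00430, FSTL5 and CASC17.

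Each of the 3984 peaks was then placed in a sequence group from the reference sequence under it, a grouping chosen after the values had been seen. A peak was tandem when at least 60% of its bases equalled the base at 1 fixed distance of up to 400 bp along it. It was a mitochondrial copy when at least 50% of it aligned to the mitochondrial genome. It was dispersed when at least 50% of its 31-base words occurred more than once in the genome, and single-copy otherwise. Single-copy peaks made up 3073 of the 3984 (77.1%), dispersed repeats 570 (14.3%), tandem repeats 337 (8.46%) and mitochondrial copies 4.

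Repeated sequence was retained far more often than single-copy sequence. Of the single-copy peaks 602 of 3073 were retained, 19.6% (18.2 to 21.03). Of the dispersed repeats 273 of 570 were retained, 47.9% (43.8 to 52.0), and of the tandem repeats 267 of 337, 79.2% (74.6 to 83.2). All 4 mitochondrial copies were retained. Tandem peaks exceeded single-copy peaks by 59.6 percentage points (54.8 to 63.9), and by 40.8 points (36.03 to 45.6) when peaks of equal control −log10 p were compared. Dispersed repeats exceeded single-copy peaks by 28.3 points, and by 14.4 points (10.6 to 18.2) at equal −log10 p. With peak width and GC content made equal as well, the differences were 46.0 points (40.6 to 51.4) for tandem and 15.5 points (11.1 to 19.8) for dispersed repeats. Near intergenic peaks, more than 1 kb and at most 50 kb from a transcript start, showed the same order. Of their tandem repeats 53 of 79 were retained (67.1%), of their dispersed repeats 41.8% and of their single-copy peaks 25.8%. Far tandem peaks exceeded near ones by 12.1 points (1.69 to 23.8), and by −1.40 points (−12.0 to 9.16) at equal −log10 p.

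Among the tandem peaks, 186 repeated within a few bases of the unit length of alpha satellite or its double, and 140 of these were retained (75.3%, 68.6 to 80.9). Another 85 repeated at a short multiple of 5 bp, at most 100 bp, and 79 of these were retained (92.9%, 85.4 to 96.7). The letters GGAAT or ATTCC occurred in these 85 at a median of 8.87 times per 100 bp, against 0.168 in single-copy peaks. The 64 peaks with other repeat distances, among them longer multiples of 5 bp, were retained in 46 cases (71.9%). Spacing alone does not name a satellite. Of the 186 peaks 3 held GGAAT at least 3 times per 100 bp, as did 82 of the 85 and 27 of the 64, a check added after the values were seen. By these letters 112 tandem peaks were pentamer satellites, of which 100 were retained (89.3%, 82.2 to 93.8), against 137 of the 183 with alpha spacing and few such letters (74.9%, 68.1 to 80.6).

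The number of far intergenic peaks also moved apart by sequence group. By the same place rule the MGO list held 2281 far intergenic peaks against 3984 in control, a ratio of 0.573 (exact binomial interval 0.544 to 0.603), beside 0.630 for all peaks, 0.453 for near intergenic ones and 0.367 for those in gene bodies more than 50 kb from a transcript start. For single-copy sequence it held 1224 against 3073, a ratio of 0.398 (0.372 to 0.426). For dispersed repeats the ratio was 0.923 (0.818 to 1.04), an interval that holds 1. For tandem repeats the MGO list held 527 peaks against 337, a ratio of 1.56 (1.36 to 1.80). The tandem peaks were thus more numerous after MGO in absolute number, although the list was shorter. In the tandem control peaks a median of 95.6% of the words occurred more than once in the genome. The authors removed reads that mapped to several places, and the part that read placement plays in these counts was not tested. Tandem peaks covered 0.394 Mb in MGO against 0.276 Mb in control, a ratio of 1.43. For single-copy peaks the ratio of covered DNA was 0.358. When only the strongest control peaks, as many as in the MGO list, were kept, the ratio was 0.975 (0.900 to 1.06) for single-copy peaks, 1.55 for dispersed repeats, 2.13 (1.82 to 2.48) for tandem repeats, 1.23 for all far intergenic peaks and 0.909 for near intergenic ones. The ratio for all far intergenic peaks therefore turned with the length of the lists and that for single-copy peaks moved to near 1, whereas the order of the sequence groups was the same in both counts. Of the 2281 far intergenic peaks in MGO, 1152 touched one of the control list (50.5%, 48.5 to 52.6) and 1129 did not. The share that touched one was 78.9% for all MGO peaks and 62.3% for near intergenic ones. For those in gene bodies more than 50 kb from a transcript start it was 51.5%, close to the far intergenic share.

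**Figure D1:**
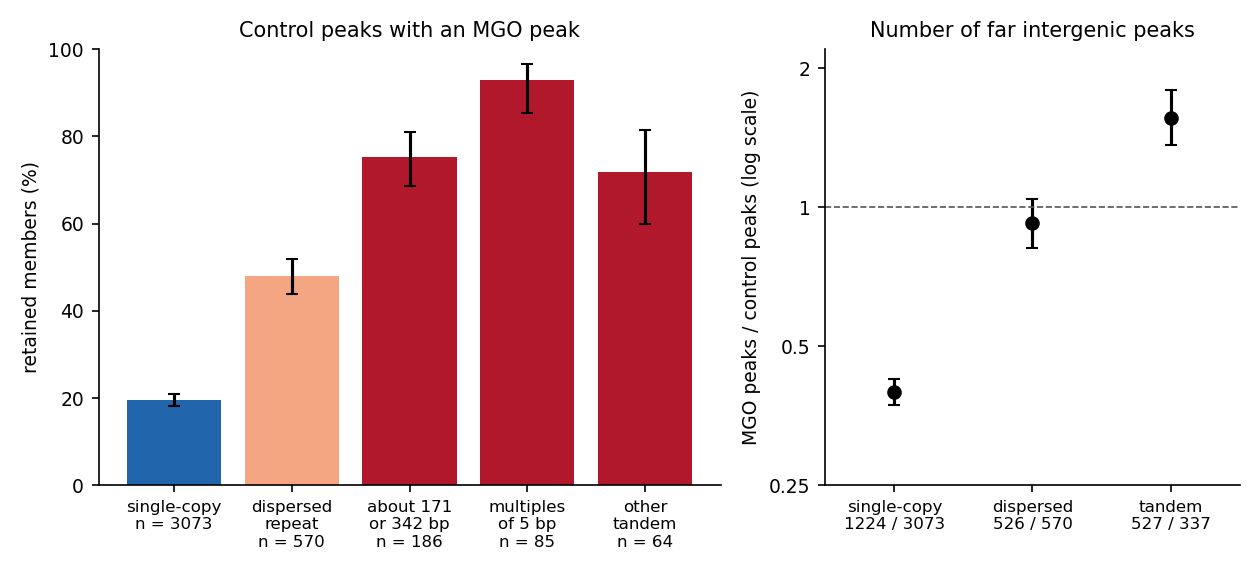
Left, percentage of far intergenic control peaks retained in the MGO list (bars, with 95% Wilson intervals) for single-copy sequence, dispersed repeats and the families of tandem repeats named by the distance at which they repeat. Only short multiples of 5 bp form that family, and longer multiples are in the other families. Right, number of MGO peaks divided by number of control peaks on a log axis with exact binomial intervals and a dashed line at 1. Single-copy peaks have the lowest value in both panels, and tandem peaks are the only group above 1, at 1.56, in the lists as deposited.

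In peaks present in both lists the −log10 p was mostly lower after MGO in single-copy sequence and mostly higher in tandem sequence. For 1135 retained peaks exactly 1 control and 1 MGO peak overlapped. Among the 600 single-copy pairs the −log10 p was lower in MGO in 71.0%, with a median of 5.88 in control and 4.64 in MGO. The MGO peak was narrower in 74.0% of them, with a median width ratio of 0.770 and median widths of 778 and 552 bp. Near intergenic pairs, 1444 of all sequence groups together, were close to this, with 73.1% lower in −log10 p and 72.4% narrower. Among the 262 tandem pairs the −log10 p was lower in MGO in 14.9%, with a median of 6.66 in control and 8.99 in MGO, and the median width ratio was 1.03. The fold enrichment over background was lower in MGO in 68.2% of the single-copy pairs and in 33.6% of the tandem pairs. Dispersed repeats lay between, with 49.8% lower in −log10 p and a median width ratio of 1.00. In all 4 mitochondrial copies both values were higher in MGO. The −log10 p of the lists depends on the reads of each library, which are not in the lists. The authors subsampled these reads at random to equal depth. With 1 library per condition the error of a difference within a pair is unknown.

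**Figure D2:**
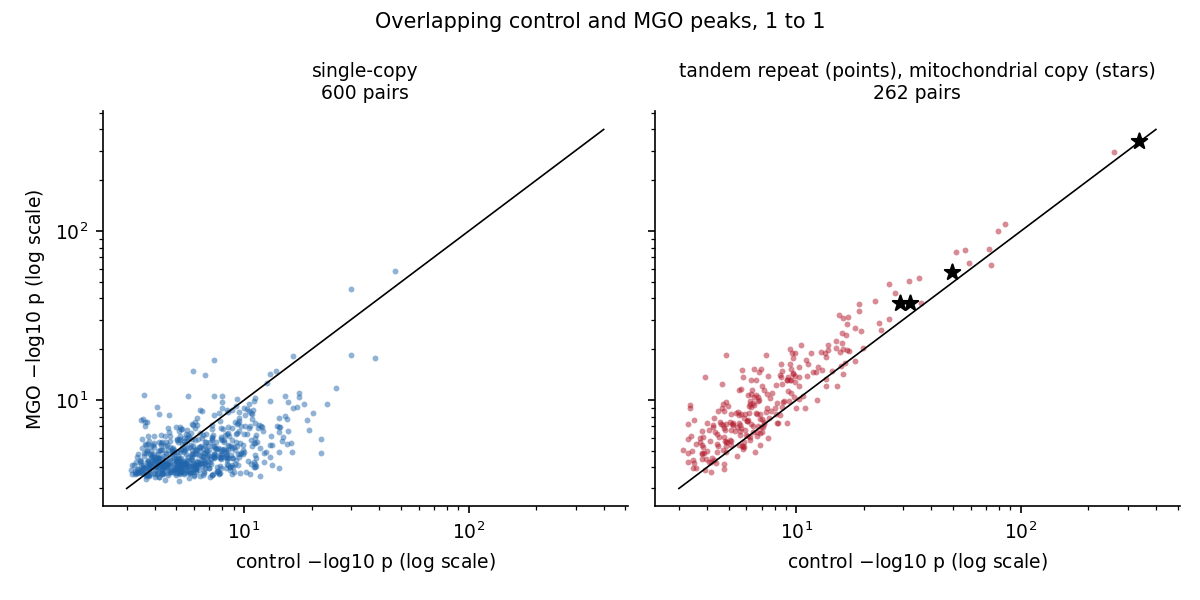
Control −log10 p (x axis) against MGO −log10 p (y axis), both on log axes, for control and MGO peaks that overlap 1 to 1, with a line where both are equal. The 600 single-copy pairs lie mostly under the line (71.0%), and the 262 tandem pairs (points) and 4 mitochondrial copies (stars) mostly above it.

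The mitochondrial copies included the strongest far intergenic peak of all. The peak at chr3:96617286-96618135 was 95.6% identical over its whole 850 bp to the mitochondrial 16S ribosomal RNA gene MT-RNR2, and had a −log10 p of 338 in control and 343 in MGO, with the same borders in both. The peak at chr17:53105885-53106383, annotated as the pseudogene MTCO1P40, went from 49.4 to 57.1. The peak at chrX:126471829-126472661, over the pseudogene MTCO1P53, went from 32.1 to 37.4, and that at chr5:100048786-100049459, over MTND4P35, from 28.9 to 37.4. MTCO1P40 and MTCO1P53 copy MT-CO1, a subunit of cytochrome c oxidase, and MTND4P35 copies MT-ND4, a subunit of complex I. Over all control peaks at least 50% mitochondrial in sequence, wherever they lay, 18 of 19 were retained. The authors removed reads mapped to the mitochondrial genome before calling peaks, and the part that mitochondrial reads play in these values was not tested.

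The 6 strongest retained peaks were all repeated sequence, and 5 of the 6 strongest that were not retained were single-copy. Repeated sequence made up 544 of all 1146 retained peaks, and single-copy sequence 2471 of the 2838 that were not retained. The second count is thus near the share over all peaks not retained. Tandem repeats were among the 6 strongest retained peaks. The pentamer satellites at chr5:49666173-49667328 and chr5:49657748-49661633 went from a −log10 p of 84.9 in control to 110 in MGO and from 79.0 to 99.6. The peak at chr4:49149160-49149864, which repeated at 170 bp but held GGAAT 13.3 times per 100 bp, had 73.4 in control and 63.4 in MGO, the only one of these 6 peaks that was lower in MGO. Another, chr4:49709300-49711882, repeated every 42 bp without these letters and went from 72.1 to 78.5. The retained peak farthest from any gene start was the dispersed repeat at chr1:125181849-125183082, 3601 kb from LINC01691, with a −log10 p of 22.1 in control and 33.0 in MGO. The widest retained peak, 5499 bp at chr1:143212459-143217957, was also a dispersed repeat and overlapped 2 MGO peaks.

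The strongest peak that was not retained lay at chr4:162421392-162422456, 257 kb from the start of FSTL5, with a −log10 p of 19.1 and a fold enrichment of 6.05. It held a 150 bp stretch 94.0% identical to mitochondrial DNA, which covered 14.1% of the peak. Next came chr17:71032670-71033719 near CASC17 with a −log10 p of 15.1 and chr2:19774256-19775284 near ENSG00000235911 with 12.5. The pentamer satellite at chr20:31105998-31106866 near DEFB115 also had 12.5. It was 1 of the 6 with a spacing of a short multiple of 5 bp that were not retained. Single-copy peaks at chr4:63670067-63671189 and chr3:80408161-80408891 followed with 11.6 each. The peak farthest from a gene start among those not retained was an alpha satellite on chromosome 1, 3328 kb from LINC01691, with a −log10 p of 4.58. The widest was a single-copy peak of 2352 bp near LINC01507 on chromosome 9, with a −log10 p of 3.59.

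The retained share was higher at the greatest distances from genes, where the share of repeated sequence was higher too. At 50 to 100 kb from the nearest transcript start 24.9% of 1476 peaks were retained, at 100 to 200 kb 23.6% of 1164 and at 200 to 500 kb 25.8% of 873. At 500 to 1000 kb it was 48.6% of 253, and beyond 1000 kb 71.6% of 218. Repeated peaks, meaning tandem, dispersed and mitochondrial ones, made up 14.6%, 15.03%, 20.2%, 54.2% and 94.95% of these 5 ranges of distance. Within single-copy sequence the shares were 21.8%, 18.3%, 17.1% and 20.7% up to 1000 kb, and 3 of 11 peaks beyond. Single-copy peaks more than 200 kb away differed from those at 50 to 100 kb by −4.11 points (−7.52 to −0.585), and by −1.68 points (−4.67 to 1.31) at equal −log10 p. Within repeated sequence the share was 42.6% at 50 to 100 kb and 73.9% beyond 1000 kb. The 50 kb border itself marked no step. Intergenic peaks at 40 to 50 kb were retained in 24.1% of 502 cases, and members at 50 to 60 kb in 23.3% of 395.

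**Figure D3:**
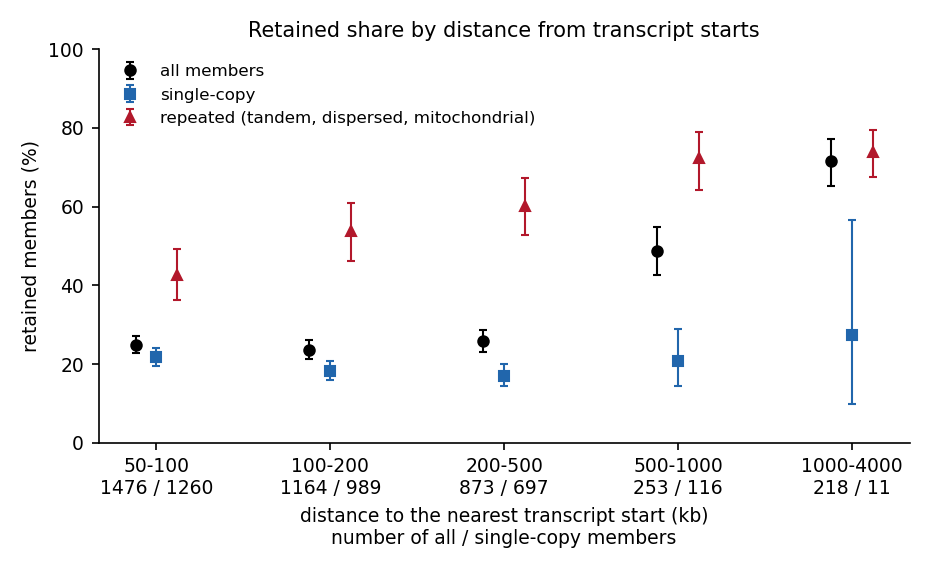
Percentage of far intergenic control peaks retained (y axis, with 95% Wilson intervals) by distance in kb to the nearest transcript start (x axis), for all members (circles), single-copy members (squares) and repeated members (triangles), with the numbers of all and of single-copy members under each range. The share of all members reaches 71.6% beyond 1000 kb, while that of single-copy members stays between 17.1% and 27.3%, the last from 11 peaks.

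Set beside peaks closer to genes, far intergenic peaks as a whole were retained in about the same share as near intergenic ones, and single-copy ones in a smaller share, differences that both moved once GC content was made equal. Of the 5136 intergenic control peaks more than 1 kb and at most 50 kb from a transcript start 28.2% were retained, a difference, near minus far, of −0.552 points (−2.43 to 1.31), and of −0.426 points (−1.99 to 1.13) at equal −log10 p. At equal −log10 p, width and GC content it was −3.51 points (−5.10 to −1.93). The sign of this difference turned with the choice of peaks. It was −6.94 points when both lists were limited to a −log10 q of at least 2, and 5.31 points when lncRNA genes were not counted as genes. Among single-copy peaks the near ones were retained in 25.8% of 4500, 6.21 points above the far ones (4.30 to 8.09), 3.35 points (1.70 to 5.00) at equal −log10 p, and −0.213 points (−1.86 to 1.43) at equal −log10 p, width and GC content. Near single-copy peaks had a median GC content of 47.3%, against 41.4% for far ones. Control peaks in gene bodies more than 50 kb from any transcript start, 2230 in all, were retained in 18.9%, and far intergenic peaks exceeded them by 9.89 points (7.71 to 12.0). Among single-copy peaks that difference was 1.58 points (−0.620 to 3.74). Peaks within 1 kb of a transcript start were retained in 84.6% of 14943 cases.

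How strongly a peak was called in control separated retained from lost single-copy peaks. With the peaks divided into 5 groups by −log10 p, in the weakest group, from 3.10 to 3.51, 4.07% of 615 were retained. The next groups had 7.80%, 11.4% and 22.6%, and in the strongest, from a −log10 p of 5.67 to 47.0, 52.1% of 614 were retained. Retained single-copy peaks had a median −log10 p of 5.88 and a median width of 780.0 bp, against 3.93 and 494 bp for those not retained. Their median fold enrichments were 3.34 and 2.88. Above a −log10 p of 12, 48 of 51 single-copy far intergenic peaks were retained, 94.1% (84.1 to 98.0), against 91.2% (84.6 to 95.2) of near intergenic ones. Between 6 and 8 the share was 40.7% (35.4 to 46.2) against 50.9% (46.5 to 55.2), the widest gap, and between 5 and 6 it was 31.8% against 31.99%.

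**Figure D4:**
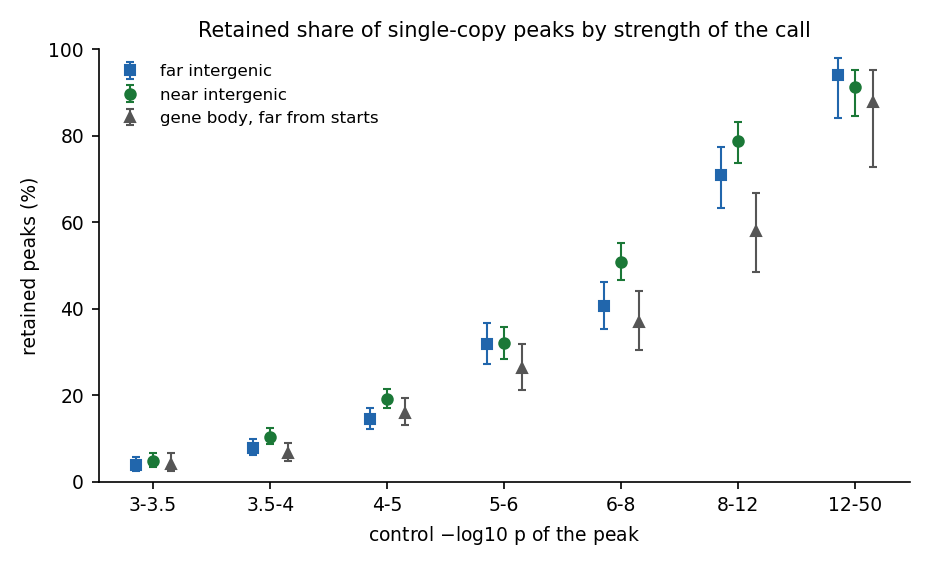
Percentage of single-copy control peaks retained in the MGO list (y axis, with 95% Wilson intervals) by control −log10 p (x axis), for far intergenic peaks (squares), near intergenic peaks (circles) and peaks in gene bodies more than 50 kb from a transcript start (triangles). In far intergenic peaks the share goes from 3.90% in the lowest range to 94.1% in the highest, and the other classes rise with it.

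CpG-rich sequence marked a small group of single-copy peaks with a high retained share. CpG islands are stretches in which the dinucleotide CG, elsewhere lost by methylation, has been kept, and they often hold promoters. A peak was called CpG-rich when its GC content was at least 50% and its ratio of observed to expected CpG at least 0.6, a division made after the values were seen. Of the 80 such single-copy members 60 were retained, 75.0% (64.5 to 83.2), against 542 of the other 2993, 18.1%. At equal −log10 p the difference was 34.9 points (26.2 to 43.6), and at equal −log10 p, width and GC content 23.4 points (9.73 to 37.1). CpG-rich single-copy peaks near genes were retained in 70.04% of 514, and the difference between far and near was 4.96 points (−6.19 to 14.1). The strongest, chr6:144215642-144217060, lay 63.9 kb from the start of STX11 and had a −log10 p of 30.1 in control and 18.4 in MGO. Those at chrX:54639340-54640207, 109 kb from GNL3L, and chr2:69306997-69307649, 79.5 kb from GFPT1, went from 18.5 to 9.46 and from 14.3 to 6.48. The MGO value was lower in each of the 4 strongest CpG-rich peaks. These 4 were chosen by their control value, which by itself favours a lower MGO value, and the part of this choice was not tested. The strongest CpG-rich peaks that were not retained had a −log10 p of 6.22, on chromosome 5, and of 6.17, 85.2 kb from the start of EGFR.

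Matches to the motifs of 15 factors or factor families were counted under the single-copy peaks, on both strands. The letters were CCANNAGNNGGC for CTCF, TGACTCA for AP-1, GGGCGG for SP, CCGGAA for ETS, TGACGTCA for CRE, GGAATG for TEAD, GCGCATGCG for NRF1, CCAAT for NFY, AGATAA for GATA, ATGCAAAT for OCT, ACAAAG for SOX, TGTGGT for RUNX, CAGCTG for the E-box, TGACNNNGC for ARE and TTCNNGAA for HSE. The AP-1 letters read backwards, ACTCAGT, were searched for comparison. A match is a string of letters and was not taken as binding. ARE and AP-1 share the letters TGAC, and TEAD contains the satellite pentamer GGAAT, so it was read in single-copy peaks only.

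AP-1 letters were more frequent in the retained single-copy peaks. They occurred in 22.9% of the retained and 10.2% of the other peaks, a difference of 12.8 points (9.35 to 16.5), which was 11.7 points (7.65 to 15.8) at equal −log10 p and width. Of the 389 single-copy peaks with AP-1 letters 35.5% were retained, and of those without 17.3%. The letters read backwards differed by 5.37 points, and by 3.39 points (−0.0532 to 6.83) at equal −log10 p and width. Counted only in the central 300 bp of each peak, so that wider peaks gave no more room, AP-1 letters differed by 4.59 points (2.22 to 7.39), or 5.74 points (2.75 to 8.73) at equal −log10 p and width, and the backward letters by 0.828 points (−0.968 to 3.08). Over all 3984 members, repeats included, the AP-1 difference was 3.77 points (1.60 to 6.10). That value was not stable, with 0.825 points (−0.681 to 2.52) in the central 300 bp, 1.34 (−1.12 to 4.03) beyond 100 kb, 1.97 (−0.882 to 4.99) at a −log10 q of at least 2 and 2.26 (−0.0131 to 4.76) for overlaps of at least 50%.

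The GC box bound by the SP factors, general activators of promoters, occurred in 22.6% of the retained and 7.00% of the other single-copy peaks. At equal −log10 p and width the difference was 10.6 points (6.76 to 14.5). GC content was not made equal in these motif comparisons. Its median was 43.8% in retained and 40.8% in other single-copy peaks. The ETS letters, which contain a CpG, differed by 6.22 points, and by 3.55 points (0.632 to 6.46) at equal −log10 p and width. CTCF letters occurred in 14.95% and 8.94%, a difference of 6.01 points (3.12 to 9.26), and of 3.64 points (0.0229 to 7.26) at equal −log10 p and width. In the central 300 bp at equal −log10 p and width the intervals of ETS and CTCF both included 0, with 0.0644 points (−1.78 to 1.91) and 2.57 points (−0.257 to 5.40), while SP kept 9.57 points (6.26 to 12.9). Over all 3984 members the CTCF difference was 0.0965 points (−1.72 to 2.09). For ARE, the E-box, RUNX, HSE, NFY, SOX, TEAD and OCT the differences at equal −log10 p and width had intervals that include 0. The GATA letters differed by 3.19 points (−1.12 to 7.59), by −4.97 points (−9.96 to 0.0253) at equal −log10 p and width, and in the central 300 bp −5.02 points (−9.24 to −0.799) at equal −log10 p and width. CRE and NRF1 letters were under 11 and 5 of the single-copy peaks only.

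**Figure D5:**
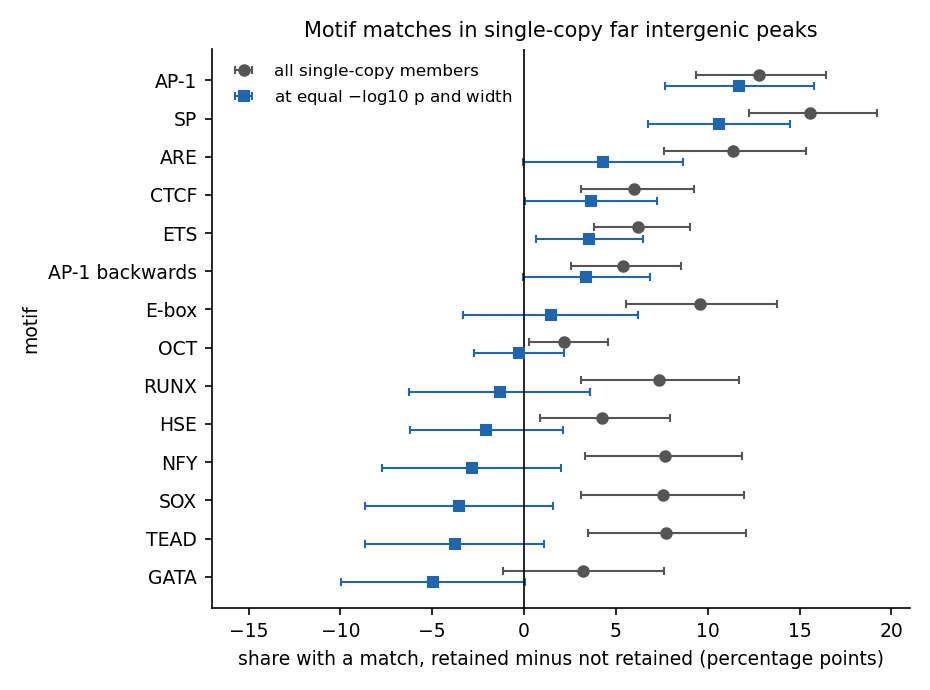
Percentage of single-copy far intergenic peaks with a motif match among retained peaks minus that among peaks not retained, in percentage points with 95% intervals, for motifs found in more than 1% of the peaks. Grey circles are all single-copy members and blue squares the difference at equal −log10 p and width, which is largest for AP-1 at 11.7 points and SP at 10.6.

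The motif content of far single-copy peaks differed from that of near ones. In the central 300 bp CTCF letters were under 6.05% of far single-copy peaks, 10.0% of near ones and 5.51% of all control peaks, with a near minus far difference of 3.99 points (2.76 to 5.20). SP letters were under 6.02% of far and 16.4% of near peaks, and under 33.4% of all control peaks. GATA and OCT letters went the other way, at 22.1% and 2.51% in far peaks and 17.2% and 1.33% in near ones, and over all control peaks at 12.9% and 1.41%. AP-1 letters were under 6.44% of far and 7.22% of near peaks, a difference of 0.779 points (−0.392 to 1.92), and 4.78% of all control peaks. Single-copy peaks in gene bodies more than 50 kb from a transcript start were mostly closer to the far ones than to the near ones. Their shares were 5.64% for CTCF, 4.02% for SP, 24.0% for GATA, 2.01% for OCT and 7.21% for AP-1. The far peaks are richer in A and T, which the letters of GATA and OCT also are, and these shares were not compared at equal GC content.

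Of the 8 strongest retained single-copy peaks 6 had a lower −log10 p in MGO than in control. The 8 were chosen for a high control value, which by itself favours a lower MGO value, and its part was not tested. The strongest with AP-1 letters, chr13:87123930-87124926, lay 212 kb from LINC00430 and had a −log10 p of 38.3 in control and 17.7 in MGO. The strongest with CTCF letters, chr13:61880722-61881425, lay 148 kb from LINC00358 and had 19.1 and 7.64. The peak at chr9:79446477-79448481, 58.5 kb from LNCARSR, had 21.9 and 4.88, and that at chr21:28745186-28745952 had 22.05 and 5.85. The exceptions were both close to the limits of the group. The peak at chr5:49599625-49603032, the strongest single-copy peak of all, had 47.0 in control and 58.3 in MGO, was 54.8% identical to itself at a distance of 5 bp and had 38.3% of its words repeated. The peak at chrY:11312149-11313733 had 30.1 and 45.5, with 49.0% identity and 45.4% repeated words. The strongest peaks with CTCF or AP-1 letters that were not retained had −log10 p values of 9.09, near ANTXRL, and 8.52, near LINC02498 in a dispersed repeat.

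Some far intergenic peaks lay in runs. Joining members less than 10 kb apart gave 3551 runs, of which 313 held 2 or more members and 14 held 5 or more. The largest, 14 members over 91.1 kb at chr1:143184669-143275785, was retained in full and held 11 dispersed and 2 tandem repeats. A run of 12 at chr4:49091803-49154946, all of them pentamer satellites by their letters, and a run of 11 at chr10:41859301-41915314 were also retained in full. At chr1:228609019-228648178, 87.3 kb from RNF187, 9 members lay in a stretch that holds 17 annotated genes of the 5S ribosomal RNA, the RNA5S cluster transcribed by RNA polymerase III, and 5 of the 9 were retained. Among all members 6 overlapped an rRNA gene. The 3 runs of 5 made of single-copy members alone were all on chromosome 13, and 2, 3 and 2 of their members were retained.

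Chromosome 13 stood out in number. It held 424 single-copy far intergenic peaks, 14.3 per Mb of DNA that the rule could choose from, against 5.23 over all chromosomes and 9.14 on chromosome 6, the next highest. Of these 102 were retained, 24.1% against 18.9% of those elsewhere, a difference of 5.18 points (1.06 to 9.71) and of 7.82 points (4.07 to 11.6) at equal −log10 p, width and GC content. The genes with the most single-copy members nearest to them were lncRNA genes of this chromosome, LINC00355 with 28 members of which 7 were retained, LINC01052 with 26 and 5, and LINC00358 with 21 and 6. On chromosome 3, ENSG00000241754 had 19 and 2, and ALCAM, which encodes a cell adhesion molecule, 14 and 3. Chromosome Y held 43 far intergenic peaks, of which 35 were retained. Of the 43, 36 were tandem, and 26 of these had a spacing of a short multiple of 5 bp. No copy number was measured, and its part in these densities was not tested.

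The rule chose from 587 Mb, 19.99% of the chromosomes analysed, in which control peaks lay at 6.79 per Mb, against 8.76 per Mb in near intergenic DNA and 12.1 per Mb over the genome. The nearest gene was a lncRNA gene for 67.5% of the single-copy members, and 18.8% of these were retained, against 21.2% of those nearest to a protein-coding gene. Of all members 3866 overlapped no annotated gene of any type, and 103 overlapped a pseudogene, of which 42 were retained.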

How the data were processed

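Peak lists of 1 control and 1 MGO library were analysed. The authors aligned 50 bp paired-end ATAC-seq reads to GRCh38 with BWA-MEM 0.7.15, used Picard to remove reads that were mitochondrial or mapped to several places (2.16.0 in the submitters' processing notes), subsampled reads at random to equal depth and called broad peaks with MACS2 per sample outside the ENCODE blacklist. They also derived consensus peaks by Irreproducible Discovery Rate, and those, like any further replicates, were not analysed here. The settings of MACS2 are not given in the sources used here. For each peak the authors deposited a fold enrichment over background (a ratio), a −log10 p, a −log10 q and a score made from the −log10 q, which was not used. The lowest −log10 q was 1.01 in both lists, whereas the study's methods use q under 0.01, and all deposited peaks were kept here (2021 members had a −log10 q of at least 2, and 47.5% of them overlapped any deposited MGO peak).

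Places came from GENCODE 44 and sequence from GRCh38. Repeated words were counted over the genome in 31-base words, and mitochondrial copies found with BLAST+ 2.17.0 (e-value up to 1e-10). Shares have 95% Wilson, differences Newcombe and ratios exact binomial intervals. Differences at equal −log10 p were weighted by Mantel-Haenszel over 20 groups, and those with width over 10 groups by strength and 5 by width, with 5 more by GC content. No test between conditions was made. Overlaps were checked with bedtools 2.31.1 and the weighting tested on simulated data. Python 3.11.15, numpy 2.4.6, pandas 2.3.3, scipy 1.17.1, samtools 1.23.1 and matplotlib 3.10.9 were used. Named peaks were the 6 strongest, the farthest and the widest of each status, and the strongest of each status with CTCF or AP-1 letters. The other single-copy, CpG-rich, mitochondrial and satellite examples, the runs and the genes were chosen after their values were seen. The members, lists and motifs were chosen with earlier results of these data known, and the sequence groups after the values were seen. The alternatives were other thresholds, overlaps, distances, gene sets and chromosomes, 1 peak per run, lists of equal length, peaks without the repeat length of alpha satellite and other strata. One marker gene of other cell types, and one sequence with its family of tandem peaks and its place among the strongest retained peaks, are not reported here.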

Additional observations from a re-analysis of the deposited data

How the results depend on the processing

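Of 71 values recomputed under alternatives, 36 moved by less than the counting interval of the reported value and 34 moved by more. The MGO to control ratio, from 0.573 to 1.23 with lists of equal length, was the 1 counted as reversed. Sign changes in the near minus far and CTCF differences, whose reported intervals held 0, were counted among the 36 and the 34. No paired analysis was possible because each condition has 1 library. Limiting both lists to a −log10 q of at least 2 gave a retained share of 37.1%, an MGO to control ratio of 0.622, near minus far differences of −6.94 points and, at equal −log10 p, −4.30 points, and a CTCF difference of −5.21 points. Lists of equal length gave a retained share of 50%, a ratio of 1.23, −4.58 points near minus far and −2.71 points for CTCF. Overlap of at least 50% gave a retained share of 23.1%. A distance of more than 100 kb gave 31.1%, 0.650, −3.60 points (−2.68 at equal −log10 p) and 1.34 points for AP-1. Counting protein-coding genes only gave a ratio of 0.511, 5.31 points (3.23 at equal −log10 p) and 6.40 points for AP-1. Genes of every biotype gave a ratio of 0.629 and −2.59 points. Leaving out peaks with the repeat length of alpha satellite gave 26.7%, 0.536 and 1.42 points. Equal −log10 p, width and GC content gave −3.51 points near minus far. The other alternatives were chosen after seeing the data. Single-copy peaks only gave 19.6%, 0.398, 6.21 points (3.32 at equal −log10 p, with the groups of equal strength formed among single-copy peaks alone, where those formed among all control peaks gave 3.35), 6.01 points for CTCF and 12.8 points for AP-1. A distance of more than 25 kb gave a ratio of 0.536 and 1.86 points (1.28 at equal −log10 p), and AP-1 letters in the central 300 bp of all members 0.825 points. The cause was not tested where it is not the choice of peaks itself.

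The limits of the sequence groups were moved as well. With tandem identity from 50% to 70% and repeated words from 10% to 75%, the retained share of single-copy members was 18.6% to 20.2%, that of single-copy members over 500 kb from a gene start 18.8% to 23.1%, and the near minus far difference 5.72 to 7.19 points. Although the authors subsampled reads to equal depth, the lists give no read counts, so depth limits what a missing MGO peak shows. Shares and numbers of tandem and dispersed peaks rest on where reads of similar sequence were placed. The authors removed reads that mapped to several places, and how many reads remained in these peaks is unknown.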
